A study of Mus musculus with 10 samples.

Results

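The 6 genes described here encode the proteins that decide whether a let-7 precursor is cut into a mature microRNA or is tailed and destroyed: Lin28a and Lin28b, the terminal uridylyl transferases Zcchc11 (current symbol Tut4) and Zcchc6 (current symbol Tut7), the exonuclease Dis3l2 and the let-7 processing factor Khsrp. They were chosen by name, from what they are known to do, although earlier results of these data were known when the choice was made. All 6 were among the 38720 gene symbols of the count table and all 6 passed the filter on low counts, as did 16340 genes in all. Gene expression was measured by RNA sequencing in tail buds microdissected from mouse embryos at the stage labelled e12point5, and the study addresses the part that Lin28 and let-7 play in elongation of the caudal body axis. The tail bud is the tissue at the posterior end from which the axis grows. The 10 libraries formed 3 groups. Lin28a-induced embryos (replicates 2 to 5, n = 4) carried TRE-Lin28a, a transgene under a doxycycline-responsive promoter, together with RLSL-rtTA and FoxD1-Cre, and were treated with doxycycline. No-Cre controls (replicates 6 to 8, n = 3) carried TRE-Lin28a and RLSL-rtTA, lacked Cre and were also treated with doxycycline. Embryos of the wild-type group (replicates 1 to 3, n = 3) are labelled only as wild type, and neither an allele nor doxycycline is named for them. The Cre is driven from FoxD1, so the transgene could be switched on only in cells with a history of FoxD1-Cre activity, whereas the libraries hold RNA of the whole dissected tissue. The dose and timing of doxycycline, the strain, the litters and any pooling of embryos were not stated in the sources used, and p-values therefore measure the spread between these libraries, which may be partly technical.

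let-7 microRNAs are made from hairpin precursors that Dicer cuts to a short mature strand, whose seed (bases 2 to 8) pairs with messenger RNAs. LIN28 proteins bind the loop of the precursor, and many let-7 loops carry a GGAG motif that the zinc knuckles of LIN28A contact. LIN28A bound to a precursor recruits ZCCHC11 or ZCCHC6, which add a run of uridines to its 3′ end, and DIS3L2 degrades the tailed RNA. Without LIN28, the same transferases can add a single uridine that helps Dicer cut some let-7 precursors, and KHSRP binds the loop and promotes processing. LIN28B is a paralog whose RNA is, like that of LIN28A, itself a let-7 target.

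The precursors are the substrate on which these proteins meet. RefSeq (GRCm38.p6) listed 12 mouse hairpins of the family, and their 5′ mature strands shared 1 seed, GAGGUAG. The GGAG motif lay between the mature arms of 9 of the 12, against 52 of the 644 mouse hairpins that have both arms annotated (8.07%). The let-7 family was not removed from the 644. The following 6 hairpins are shown because they span the family with and without that motif, which stands in capitals. The first 4 hold it and the last 2, pre-let-7b and pre-miR-98, do not, and Mirlet7c-2 also lacks it. A missing GGAG says only that these letters are not in the loop as annotated.
pre-let-7i, chr10:122985640-122985724, minus strand: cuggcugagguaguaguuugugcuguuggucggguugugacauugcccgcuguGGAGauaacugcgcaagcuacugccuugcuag
pre-let-7g, chr9:106178840-106178927, plus strand: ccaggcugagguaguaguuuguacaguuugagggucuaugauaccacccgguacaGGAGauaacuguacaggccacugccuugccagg
pre-let-7a-1, chr13:48538179-48538272, minus strand: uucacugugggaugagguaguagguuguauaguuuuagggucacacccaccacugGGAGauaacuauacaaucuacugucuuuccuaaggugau
pre-let-7c-1, chr16:77599657-77599750, plus strand: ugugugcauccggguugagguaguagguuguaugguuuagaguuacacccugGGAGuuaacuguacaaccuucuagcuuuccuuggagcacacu
pre-let-7b, chr15:85707319-85707403, plus strand: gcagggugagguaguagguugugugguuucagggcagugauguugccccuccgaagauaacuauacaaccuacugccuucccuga
pre-miR-98, chrX:151913214-151913321, plus strand: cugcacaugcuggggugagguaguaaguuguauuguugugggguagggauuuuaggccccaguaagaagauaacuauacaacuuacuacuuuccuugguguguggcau
The mature strands that these precursors release are given for 3 of them, with the seed in capitals.
mature let-7i: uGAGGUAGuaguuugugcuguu
mature let-7a-1: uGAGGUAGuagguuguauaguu
mature miR-98: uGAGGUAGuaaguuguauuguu

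Of the 6 members, 4 carried matches to that seed in their own annotated 3′ UTR. An 8-base match was CTACCTCA, and a 7-base match was either CTACCTC (to seed position 8) or TACCTCA (with A opposite the first base). The search ran on the sense strand, and each position was counted once at its longest match. Lin28b had 5 matches in 4445 bases, a count reached by 15 of the 20829 genes with a 3′ UTR of at least 30 bases. Lin28a had 2 matches in 2775 bases, and 2.34% of genes had at least 2. Zcchc11 had 1 in 636 bases and Khsrp had 1 in 1642 bases, and 13.48% of genes had at least 1. Zcchc6 (1346 bases) and Dis3l2 (350 bases) had none. A longer 3′ UTR can hold more matches, and the median over these genes was 821 bases. Per kilobase, Zcchc11 had 1.57 matches, Lin28b 1.12, Lin28a 0.72 and Khsrp 0.61, against 0.123 over all these genes. The sites with the longest match in each Lin28 gene and in Khsrp are shown, with the single 7-base site of Zcchc11, as 22-base DNA windows (GRCm38) with the matched letters in capitals. These matches describe the annotated genes. Whether the Lin28a transgene carries them was not stated there or in the labels.
Lin28a, chr4:134005189-134005210, minus strand: cacagcctgttgaaCTACCTCA
Lin28a, chr4:134004551-134004572, minus strand: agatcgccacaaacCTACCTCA
Lin28b, chr10:45381022-45381043, minus strand: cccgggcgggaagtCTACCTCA
Khsrp, chr17:57022184-57022205, minus strand: tgccaccttccaacCTACCTCA
Zcchc11, chr4:108558818-108558839, plus strand: tctcaagggtatccgTACCTCA

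Library totals ran from 21762668 to 39517946 counts. The 7 transgenic libraries had Pearson correlations of log2 CPM (counts scaled to the size of the library) of 0.989 to 0.992 within their groups, and the wild-type libraries 0.977 to 0.985. Wild-type replicate 2 stood farthest from the transgenic libraries. Mitochondrially encoded RNA made up 0.446% to 0.69% of counts in the Lin28a-induced libraries, 0.525% to 0.61% in the no-Cre libraries and 1.85% to 2.69% in the wild-type libraries. All 10 tail bud markers tested (among them T, Cdx2 and Hoxb13) were detected, with summed levels of 1200 to 1570, 1240 to 1310 and 642 to 1280 CPM in the Lin28a-induced, no-Cre and wild-type libraries. All 6 endothelial markers were higher in both transgenic groups than in wild type (summed 254 to 355 and 268 to 304 against 62.2 to 125 CPM), and all 6 surface ectoderm markers were lower (203 to 227 and 211 to 240 against 563 to 726 CPM). The 7 macrophage markers summed to 77.4 to 98.1, 72.3 to 84.4 and 33 to 61.7 CPM in the 3 groups. Of the 9 red blood cell markers, 3 were higher and 1 lower in each transgenic group than in wild type. Over all tested genes the shares were 24.3% and 25% for induced, and 21% and 21.4% for no-Cre libraries. Hba-a2, picked with its value in view, averaged 0.368 CPM in wild-type, 125 in induced and 185 in no-Cre libraries. Other globins went the other way. Hbb-bs, the marker that was lower, averaged 311, 37.8 and 53.6 CPM in the same order. Hba-a1, which did not pass, averaged 529, 249 and 367 CPM. The sex marker Xist was high only in induced replicate 5 (28876 counts) and no-Cre replicate 7 (29382 counts), and in no wild-type library. Between induced and no-Cre libraries, none of the 9 red blood cell markers (summed 3650 to 5980 against 5510 to 9310 CPM) and none of the 4 tested neural tube markers (6 listed, summed 48.6 to 61.4 against 67.6 to 82.4 CPM) passed edgeR's test. That test called 1.76% of all tested genes higher and 1.15% lower. At an unadjusted p under 0.05 and with DESeq2 the count was 0 for the red blood cell list and 1 lower for the neural list (at the unadjusted p, Sox2, -0.43 ± 0.11, adjusted p = 0.07, a member singled out with its value in view). The comparisons with wild type set apart libraries that also differed in these markers and in mitochondrial RNA, whose part in the results below was not tested. In RNA from whole tissue, fewer cells of a type and less RNA per cell cannot be told apart.

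Lin28a was the one member that passed the test in induced libraries against both controls. Lin28a, the RNA-binding protein expressed from the transgene, lies at chr4:134003330-134018841 on the minus strand (GRCm38). Its level was 664, 605, 750 and 731 CPM in Lin28a-induced replicates 2 to 5. In no-Cre replicates 6 to 8 it was 5.03, 4.53 and 2.64 CPM, and in wild-type replicates 1 to 3 it was 6.16, 5.72 and 4.45 CPM. Every induced library stood far above every control library, while the 2 control groups overlapped. With edgeR's quasi-likelihood test and Benjamini-Hochberg adjustment over all tested genes, used for every adjusted p of a gene here, Lin28a was 167-fold higher in Lin28a-induced than in no-Cre libraries (log2 fold change 7.38 ± 0.21 SE, adjusted p = 2.95e-07) and had the smallest p of all tested genes. It was 126-fold higher than in wild type (6.97 ± 0.21, adjusted p = 7.81e-09). Between no-Cre and wild-type libraries the log2 difference was -0.41 ± 0.22 (95% interval -0.90 to 0.08, adjusted p = 0.161). Lin28a was thus not detectably higher in the no-Cre libraries. These groups also differed in markers and mitochondrial RNA, so whether the transgene is expressed without Cre was not tested. Of the 32-base words in the annotated transcripts of Lin28a, 5.16% also occur, on either strand, in transcripts of other genes. The counts do not tell transgene RNA from the RNA of the endogenous gene. Per exon length, as CPM divided by exon length in kilobases (RPKM), Lin28a ranked 164th of 16156 genes in the induced libraries, against 11608th in no-Cre and 11348th in wild-type libraries. Whether the transgene carries the whole annotated 3′ UTR was not stated. Values of Lin28a per length in induced libraries, here and below, therefore rest on the annotated exons.

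Lin28b, the paralog, was higher in both transgenic groups than in wild type but did not separate induced from no-Cre libraries. It lies at chr10:45376620-45486395 on the minus strand. Its level was 30.7, 32.8, 37.6 and 42.6 CPM in the induced libraries, 35.1, 33.2 and 25.6 CPM in the no-Cre libraries and 23.7, 23.6 and 17.9 CPM in the wild-type libraries. The induced and no-Cre ranges overlapped, and all 7 transgenic libraries lay above all 3 wild-type libraries. The log2 difference between induced and no-Cre libraries was 0.20 ± 0.14 (95% interval -0.11 to 0.50, adjusted p = 0.553). Lin28b was 1.65-fold higher in induced than in wild-type libraries (0.72 ± 0.14, adjusted p = 0.00153) and 1.44-fold higher in no-Cre than in wild-type libraries (0.52 ± 0.15, adjusted p = 0.0167). The second of these calls was lost without no-Cre replicate 6 (adjusted p = 0.0633), without no-Cre replicate 7 (0.0541) or without wild-type replicate 3 (0.0541). Without wild-type replicate 2 it was 0.59 (adjusted p = 0.0413).

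The balance of the 2 Lin28 RNAs was reversed in the induced libraries. Because both are read in the same library, their ratio per exon length needs no scaling between libraries. Lin28a to Lin28b was 49.1, 41.8, 45.3 and 38.9 in the induced libraries, 0.325, 0.309 and 0.234 in the no-Cre libraries and 0.589, 0.549 and 0.564 in the wild-type libraries. Lin28b was thus the more abundant Lin28 RNA per length in all 6 control libraries and the less abundant in all 4 induced libraries, and no 2 groups overlapped. The ratio was 43.8 ± 4.39 (SD, n = 4), 0.289 ± 0.0486 (n = 3) and 0.567 ± 0.0203 (n = 3) in the 3 groups. Since Lin28a is expressed from the transgene, a higher ratio in the induced libraries was built into the design. In exact two-sided permutation tests over libraries, adjusted over the 6 ratio comparisons made, induced against no-Cre and induced against wild type each gave p = 0.0286, the smallest that 4 against 3 libraries can give (adjusted 0.0572), and no-Cre against wild type gave p = 0.1, the smallest that 3 against 3 can give (adjusted 0.12). Summed over both genes, Lin28 RNA was 176 ± 17 RPKM in induced, 4.47 ± 0.87 in no-Cre and 3.76 ± 0.587 in wild-type libraries (SD), and Lin28a made up 97.8%, 22.4% and 36.2% of that sum.

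**Figure D1:**
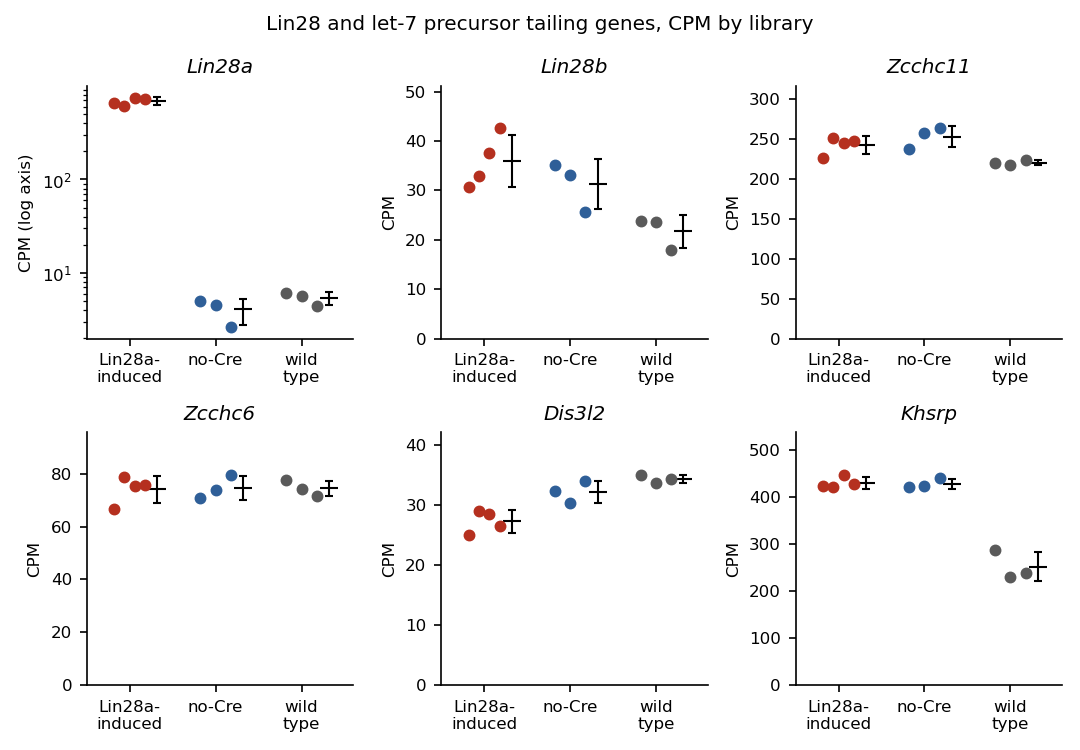
Level of each of the 6 genes in CPM (y axis) in every library of the 3 groups (x axis; points are libraries, the bar beside them is the mean with the SD; the Lin28a axis is logarithmic, the others start at 0). The 4 Lin28a-induced libraries sit between 605 and 750 CPM for Lin28a, far above the 6 controls, while the transferases overlap between induced and no-Cre libraries and Khsrp separates the wild-type libraries (229 to 287 CPM) from the 7 others.

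Neither uridylyl transferase differed between induced and no-Cre libraries by more than the spread between replicates. Zcchc11, which with LIN28 adds the uridine tail, lies at chr4:108459426-108559421 on the plus strand. Its level was 226, 252, 245 and 248 CPM in the induced, 238, 258 and 264 CPM in the no-Cre and 220, 218 and 224 CPM in the wild-type libraries. The induced and no-Cre ranges overlapped, and both lay above the wild-type values. The log2 difference between induced and no-Cre libraries was -0.06 ± 0.05 (95% interval -0.18 to 0.05, adjusted p = 0.639). Zcchc11 was 1.15-fold higher in no-Cre than in wild-type libraries (0.20 ± 0.06, adjusted p = 0.0145), a call lost without no-Cre replicate 8 (adjusted p = 0.0634). In induced against wild-type libraries the difference was 0.14 ± 0.05 and did not pass (adjusted p = 0.0524), though it passed with DESeq2 (0.0258), limma-voom (0.0497), DESeq2 size factors (0.0452), a GC offset (0.22, adjusted p = 0.00477) or without induced replicate 2 (0.0209).

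Zcchc6, the second transferase of the pair, was at nearly the same level in every group. It lies at chr13:59771561-59823147 on the minus strand. Its level was 66.5, 78.6, 75.4 and 75.8 CPM in the induced, 70.7, 73.7 and 79.7 CPM in the no-Cre and 77.5, 74.2 and 71.6 CPM in the wild-type libraries. All 3 ranges overlapped. The log2 differences were -0.01 ± 0.06 (95% interval -0.15 to 0.12, adjusted p = 0.962) for induced against no-Cre, -0.01 ± 0.06 (adjusted p = 0.937) for induced against wild type and 0.00 ± 0.07 (adjusted p = 0.965) for no-Cre against wild type. Of its exon bases, 1299 overlap the antisense gene Etohd2, which held 32 to 70 counts per library, and the strand setting used for counting was not stated. Of the 32-base words in its transcripts, 11.34% also occur, on either strand, in transcripts of other genes, the largest share among the 6 members.

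Zcchc11 exceeded Zcchc6 in every library. The ratio of Zcchc11 to Zcchc6 per exon length was 5.76, 5.44, 5.51 and 5.55 in the induced, 5.71, 5.94 and 5.62 in the no-Cre and 4.82, 4.99 and 5.32 in the wild-type libraries. The 2 transgenic groups overlapped and lay above wild type. Exact two-sided permutation tests gave p = 0.171 for induced against no-Cre (adjusted 0.171), 0.0286 for induced against wild type (adjusted 0.0572) and 0.1 for no-Cre against wild type (adjusted 0.12).

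**Figure D2:**
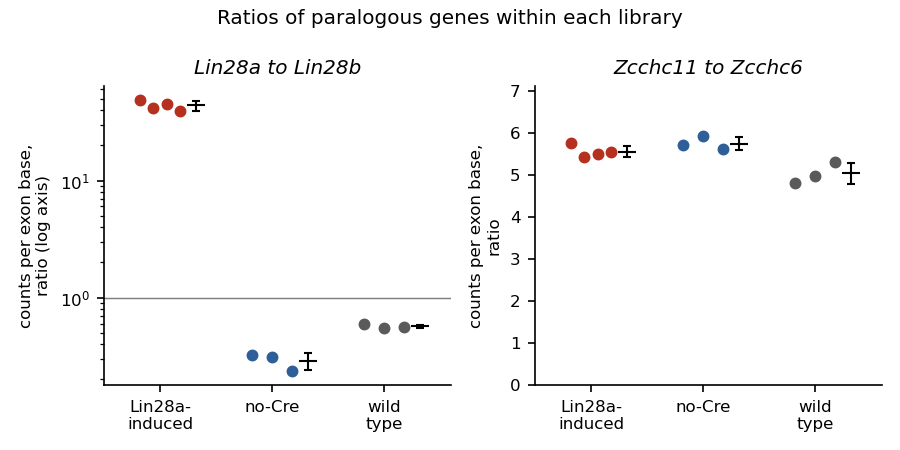
Ratio of counts per exon base within each library (y axis) for Lin28a to Lin28b (left, logarithmic axis, line at 1) and Zcchc11 to Zcchc6 (right, axis from 0) in the 3 groups (points are libraries, bars the mean with the SD). Lin28a to Lin28b is 38.9 to 49.1 in the induced libraries and below 1 in all 6 controls, and Zcchc11 to Zcchc6 lies between 4.82 and 5.94 throughout.

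Dis3l2, the exonuclease that degrades uridylated let-7 precursors, was lower in induced than in wild-type libraries. It lies at chr1:86703808-87050095 on the plus strand. Its level was 25, 29.1, 28.6 and 26.5 CPM in the induced, 32.4, 30.3 and 34 CPM in the no-Cre and 35.1, 33.7 and 34.4 CPM in the wild-type libraries. The 4 induced libraries lay below all 6 controls, and the control groups overlapped. Against wild type the difference was -0.34 ± 0.07 (fold 0.792, adjusted p = 0.00145), and -0.22 (adjusted p = 0.0237) with an offset for GC content. Against no-Cre it was -0.24 ± 0.07 (95% interval -0.39 to -0.09, unadjusted p = 0.00417) and did not pass after adjustment (adjusted p = 0.0887). That difference passed with DESeq2 (adjusted p = 0.0358) and in a fit of only the 2 groups (0.0301), and in 0 of the 7 fits that left out 1 library (adjusted p up to 0.333). No-Cre and wild-type libraries differed by -0.10 ± 0.08 (adjusted p = 0.326).

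Khsrp, which promotes let-7 processing, was higher in both transgenic groups than in wild type and did not separate them from each other. It lies at chr17:57021051-57031522 on the minus strand. Its level was 422, 421, 447 and 428 CPM in the induced, 421, 422 and 440 CPM in the no-Cre and 287, 229 and 238 CPM in the wild-type libraries. The transgenic groups overlapped, and every transgenic library exceeded every wild-type library. Khsrp was 1.71-fold higher in induced than in wild-type libraries (0.77 ± 0.07, adjusted p = 1.27e-06) and 1.7-fold higher in no-Cre than in wild-type libraries (0.77 ± 0.07, adjusted p = 3.23e-06). Without wild-type replicate 2 both differences were 0.71 (adjusted p = 3.45e-07 and 8.3e-07). The difference between induced and no-Cre libraries was 0.01 ± 0.07 (95% interval -0.14 to 0.15, adjusted p = 0.987). Of the 32-base words in its transcripts, 7.16% also occur, on either strand, in transcripts of other genes. Part of its reads could be assigned elsewhere, but this share does not measure how many.

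Counted together, 1 of the 6 members was higher (Lin28a) and 0 were lower in induced than in no-Cre libraries, where 1.76% of all tested genes were higher and 1.15% lower. Lin28a is expressed from the transgene, so its calls in induced libraries were built into the design. The other 5 members did not pass. The edgeR count of 0 lower members becomes 1, Dis3l2, at an unadjusted p under 0.05 and also with DESeq2. Against wild type, 3 members were higher (Lin28a, Lin28b, Khsrp) and 1 lower (Dis3l2) in induced libraries, where 24.3% of tested genes were higher and 25% lower. In no-Cre against wild-type libraries 3 were higher (Lin28b, Zcchc11, Khsrp) and 0 lower, the latter also at an unadjusted p under 0.05 and with DESeq2, where 21% were higher and 21.4% lower. The median log2 difference of the 6 members was -0.00, 0.43 and 0.10 in the 3 comparisons, and that of all tested genes -0.00, -0.02 and -0.02. The comparisons share libraries, since each group enters 2 of them. Wild-type and transgenic embryos differ in alleles and in the doxycycline named for them, and the strain was not stated. Their libraries also differed in the markers and mitochondrial RNA given above. These differences cannot be told apart.

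**Figure D3:**
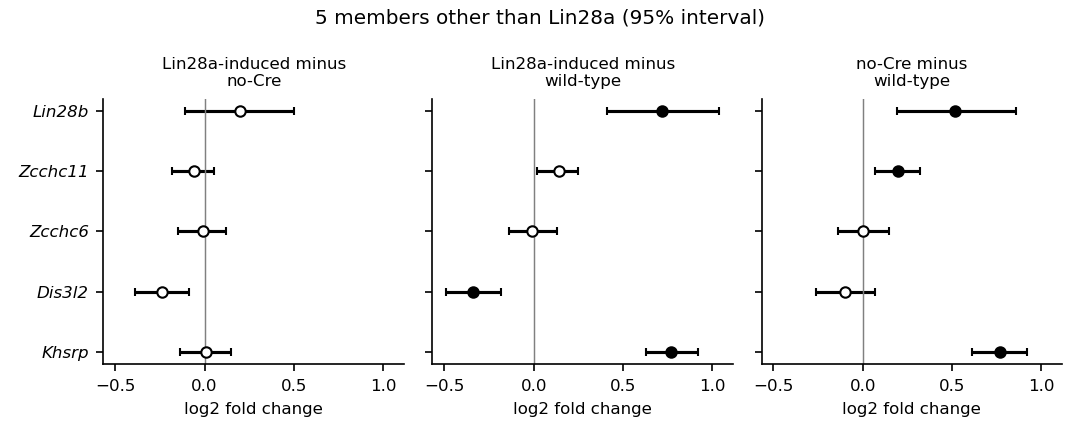
Log2 fold change (x axis) with its 95% interval for the 5 members other than Lin28a (y axis) in the 3 comparisons (panels; filled points have an adjusted p under 0.05 in edgeR's quasi-likelihood test). In Lin28a-induced against no-Cre libraries all 5 points are open and lie between -0.24 and 0.20, while Khsrp is at 0.77 against wild type in both transgenic groups.

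Per exon length, the no-Cre libraries put Khsrp highest at 99 ± 2.39 RPKM (SD, n = 3), followed by Zcchc11 at 29.2 ± 1.56, Zcchc6 at 5.07 ± 0.309, Dis3l2 at 3.62 ± 0.208, Lin28b at 3.45 ± 0.555 and Lin28a at 1.02 ± 0.315. Dis3l2 and Lin28b, neighbours in that order, did not differ beyond their spread. Wild-type libraries had the same order, with 58.2 ± 7.17, 25.4 ± 0.348, 5.05 ± 0.201, 3.87 ± 0.0762, 2.4 ± 0.369 and 1.36 ± 0.222 RPKM. In the induced libraries Lin28a moved from the last place to the first at 172 ± 16.6 RPKM (n = 4), ahead of Khsrp at 99.4 ± 2.84, Zcchc11 at 27.9 ± 1.33 and Zcchc6 at 5.03 ± 0.356. Lin28b (3.96 ± 0.586) and Dis3l2 (3.06 ± 0.215) followed. With the longest annotated transcript as the length, Dis3l2 and Lin28b were at 6.15 and 5.8 per kilobase in no-Cre libraries and the order of the controls was the same.

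Foxd1, the gene whose regulatory elements drive the Cre, was measured at 4.49, 4.82, 4.23 and 7.6 CPM in the induced, 10.2, 7.89 and 8.13 CPM in the no-Cre and 6.32, 6.37 and 7.53 CPM in the wild-type libraries. Induced libraries lay below no-Cre libraries, with a difference of -0.72 ± 0.19 that did not pass (adjusted p = 0.0572), although it passed in 5 of 9 other settings (adjusted p 0.00966 to 0.0686). Of the 7 fits without 1 library, 1 passed, that without induced replicate 5 (-0.96, adjusted p = 0.00786), and the others reached -0.60 and an adjusted p of 0.253. Whether it bears on the level of the transgene was not tested.

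The wider machinery was read from 4 lists: other terminal nucleotidyltransferases, the RNA exosome and other exoribonucleases, other proteins that bind or modify let-7 precursors, and the Microprocessor, export, Dicer and Argonaute genes. Of the 8 terminal nucleotidyltransferases tested (9 listed), 0 were lower in induced than in no-Cre libraries, where 1.15% of all tested genes were lower. The count was also 0 at an unadjusted p under 0.05 or with DESeq2. Of the 8, 1 was higher, beside a share of 1.76% over all tested genes. That gene was Papd5, a noncanonical poly(A) polymerase that tails and destabilises noncoding RNAs, at 88.7 ± 1.35 CPM (SD, n = 4) in induced, 70.3 ± 2.21 in no-Cre and 63.3 ± 1.96 in wild-type libraries (n = 3 each). Its differences were 0.34 ± 0.05 against no-Cre (adjusted p = 0.00162, past the threshold in 7 of 7 fits without 1 library) and 0.49 ± 0.05 against wild type (adjusted p = 2.29e-06). Against wild type, 3 of the 8 were higher and 1 lower in each transgenic group, where 24.3% of all tested genes were higher and 25% lower in induced, and 21% and 21.4% in no-Cre libraries. Papd4, a cytoplasmic poly(A) polymerase that acts on messenger and microRNAs, was 0.26 ± 0.07 higher in induced than in wild-type libraries (adjusted p = 0.00875). In no-Cre against wild-type libraries it was 0.22 ± 0.08 higher (adjusted p = 0.0372, past the threshold in 1 of 6 fits without 1 library). Papd7 was 0.28 ± 0.08 higher in no-Cre than in wild-type libraries (adjusted p = 0.0112). Fam46b was the one that fell, by 2.39 on the log2 scale in induced against wild-type libraries (adjusted p = 7.88e-05), from 3.9 ± 1.77 to 0.744 ± 0.284 CPM. No-Cre libraries held 0.741 ± 0.208 CPM of Fam46b, a difference of -2.40 from wild type (adjusted p = 0.000239). The list's median log2 difference was 0.02, 0.02 and 0.08 in induced against no-Cre, induced against wild type and no-Cre against wild type.

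None of the 18 exosome and exoribonuclease genes passed edgeR's test between induced and no-Cre libraries (18 of 19 listed were in the table). That test called 1.76% of all tested genes higher and 1.15% lower. For the list, an unadjusted p under 0.05 gave 2 higher and 1 lower, and DESeq2 called 0. The 18 log2 differences ran from -0.22 to 0.15, with a median of 0.06. Against wild type 5 were higher and 2 lower in induced libraries, where 24.3% and 25% of all tested genes were higher and lower, and 1 was higher and 2 lower in no-Cre libraries, where the shares were 21% and 21.4%. These counts do not set the list apart from all genes. Eri1, an exonuclease of histone messenger and small RNAs, fell by 0.32 in induced against wild-type libraries (adjusted p = 0.000626), from 99.8 ± 6.78 to 80.2 ± 4.23 CPM. No-Cre libraries were at 80.5 ± 2.94 CPM, which was -0.31 against wild type (adjusted p = 0.00164). Induced and no-Cre libraries differed by -0.01 in Eri1 (adjusted p = 0.981). Exosc4, a subunit of the exosome core, was 0.29 ± 0.07 higher in induced than in wild-type libraries (adjusted p = 0.00481). In no-Cre against wild-type libraries it was 0.24 ± 0.08 higher (adjusted p = 0.0245, past the threshold in 3 of 6 fits without 1 library). The helicase Skiv2l2 (0.17 ± 0.05, adjusted p = 0.0191) and the nuclear exonuclease Exosc10 (0.15 ± 0.05, adjusted p = 0.0219) were higher by less in induced than in wild-type libraries. The Skiv2l2 call was lost without wild-type replicate 1 (adjusted p = 0.0512) or 3 (0.0792), and the Exosc10 call without induced replicate 4 (0.0528) or 5 (0.0503) or wild-type replicate 3 (0.0777).

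Of the 14 other proteins that bind or modify let-7 precursors, 1 was higher and 0 lower in induced than in no-Cre libraries. Over all tested genes 1.76% were higher and 1.15% lower. At an unadjusted p under 0.05, 1 of the 14 was lower, and DESeq2 called 0 lower. The higher gene was Adar, which edits adenosines in double-stranded RNA. It was at 75.2 ± 3.52 CPM in induced, 57.9 ± 1.31 in no-Cre and 50.3 ± 3.9 in wild-type libraries. It differed by 0.38 ± 0.06 from no-Cre (adjusted p = 0.00425, past the threshold in 7 of 7 fits without 1 library) and by 0.58 ± 0.06 from wild type (adjusted p = 5.08e-06). Against wild type 3 were higher and 2 lower in induced libraries, and 4 higher and 1 lower in no-Cre libraries, again beside shares over all tested genes of 24.3% and 25%, and of 21% and 21.4%. Msi1, an RNA-binding protein of progenitor cells, was 0.62 ± 0.08 higher in induced than in wild-type libraries (adjusted p = 3.49e-05), and Trim25, a ligase that binds pre-let-7, was 0.27 ± 0.08 higher (adjusted p = 0.0141). In no-Cre against wild-type libraries Msi1 was at 0.46 (adjusted p = 0.000852) and Trim25 at 0.03 (0.836). Neither gene passed between induced and no-Cre libraries (adjusted p = 0.34 and 0.128). Msi2, the paralog of Msi1, was 0.36 ± 0.11 higher in no-Cre than in wild-type libraries (adjusted p = 0.0202; 0.0768 without no-Cre replicate 8). The list's median was -0.00, 0.01 and 0.02 in the 3 comparisons.

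The Microprocessor, export, Dicer and Argonaute genes had the most calls between induced and no-Cre libraries, 3 higher and 1 lower of 10 tested, where 1.76% of all tested genes were higher and 1.15% lower. At an unadjusted p under 0.05 the counts were 6 higher and 1 lower, and with DESeq2 they were 5 higher and 1 lower. The median log2 difference was 0.17. Dicer1, which cuts let-7 precursors, was at 501 ± 26.9 CPM in induced, 384 ± 13.5 in no-Cre and 301 ± 43.7 in wild-type libraries. Its difference from no-Cre was 0.38 ± 0.08 (adjusted p = 0.0249), a call kept in 1 of 7 fits without 1 library (adjusted p 0.031 to 0.136; lost without induced replicate 3, 4 or 5 or any no-Cre replicate). The other 3 calls lie outside the naming rule and were picked with their values in view. Tarbp2, a partner of Dicer, differed by 0.40 ± 0.07 (adjusted p = 0.00756, past the threshold in 5 of 7 fits without 1 library; 0.0592 and 0.0632 without no-Cre replicates 7 and 8). Dgcr8, the RNA-binding subunit of the Microprocessor, differed by 0.19 ± 0.05 (adjusted p = 0.0461, past it in 0 of 7, where it ran from 0.096 to 0.244). Ago4, an Argonaute, fell by 0.49 (adjusted p = 0.0308, past it in 1 of 7, only without induced replicate 3, and up to 0.165 in the others). Against wild type 6 of the 10 were higher and 1 lower in induced libraries, and 3 higher and 1 lower in no-Cre libraries, beside shares over all tested genes of 24.3% and 25%, and of 21% and 21.4%. Dicer1 (0.74 ± 0.08, adjusted p = 1.08e-05), Drosha, the nuclear Microprocessor nuclease (0.65 ± 0.08, adjusted p = 3.09e-05), and Ago2, the Argonaute that can cut its targets (0.61 ± 0.08, adjusted p = 3.21e-05), were higher in induced than in wild-type libraries, and Prkra, another Dicer partner, fell by 0.46 (adjusted p = 0.000195). The same genes also differed between no-Cre and wild-type libraries. There Dicer1 was at 0.35 (adjusted p = 0.0054), Drosha at 0.48 (0.000823), Ago2 at 0.33 (0.00544) and Prkra at -0.40 (0.00133). Drosha (0.18, adjusted p = 0.306), Ago2 (0.27, 0.0805) and Prkra (-0.06, 0.769) did not pass edgeR's test between induced and no-Cre libraries.

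**Figure D4:**
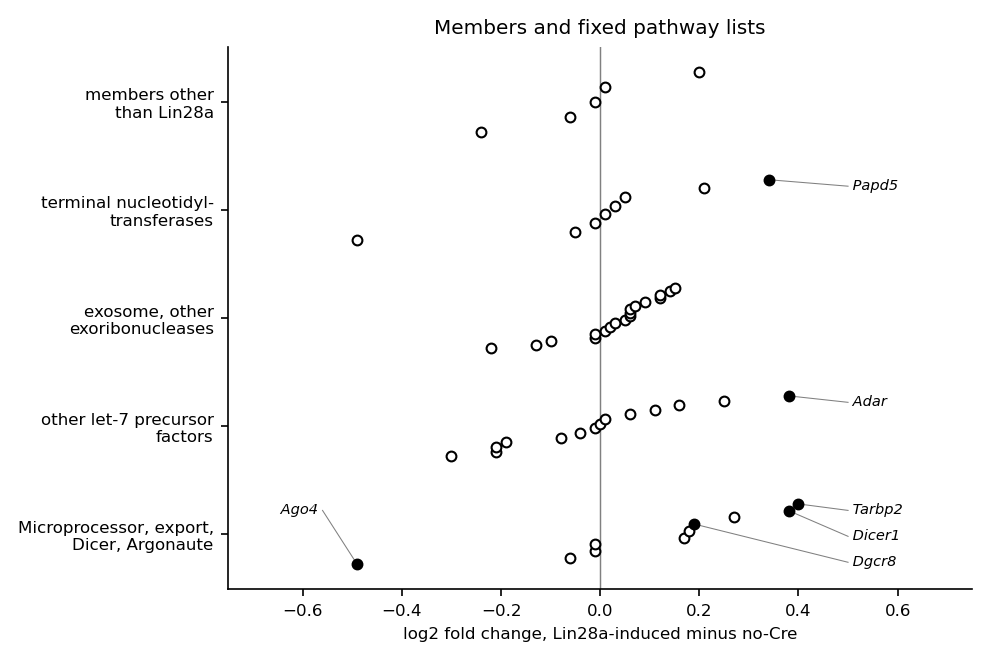
Log2 fold change between Lin28a-induced and no-Cre libraries (x axis) for each tested gene of the 5 members other than Lin28a and of the 4 lists (rows; height within a row only separates the points; filled points have an adjusted p under 0.05 in edgeR's quasi-likelihood test and are named). The members have no filled point and the exosome row spans -0.22 to 0.15, while Papd5, Adar, Tarbp2, Dicer1 and Dgcr8 are higher and Ago4 is lower.

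Rows for let-7 hairpins were also in the count table, 10 of the 12, and only Mirlet7i passed the filter on low counts. Its counts were 16, 16, 11 and 27 in the induced, 0, 1 and 1 in the no-Cre and 0, 4 and 0 in the wild-type libraries. Every induced library exceeded every control, and all 4 wild-type counts came from replicate 2. The row passed the filter only through the induced libraries, so no test of it is given, and the other 9 rows held at most 6 counts in a library. The reads were 75 bases long and the hairpin is 85 bases, so the counts do not measure mature let-7i. All 85 bases also lie in exons of the annotated transcript D630033A02Rik on the same strand, and whether the reads came from a precursor or a longer transcript was not tested.

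Genes whose levels ran most like a member's were taken as the 3 with the highest Pearson correlation of log2 CPM over the 10 libraries, among 12561 named genes with a mean of at least 1 CPM. The libraries fall into groups, which all these correlations share. For Lin28a they were Atg12 (r = 0.99), Tmx1 (0.988) and Evc (0.979), which were chosen for following Lin28a and whose log2 differences between induced and no-Cre libraries were 0.50, 0.40 and 0.72, against 7.38 for Lin28a. For Lin28b they were Mis12 (0.961), Car4 (0.958) and Ddx31 (0.951), and for Zcchc11 Rnf24 (0.967), Nacc2 (0.956) and Ubr2 (0.953). For Zcchc6 they were Alms1 (0.907), Usp45 (0.906) and Dhx9 (0.898). For Dis3l2 they were Sptan1 (0.959), Sec22b (0.957) and Htatsf1 (0.951). For Khsrp they were Otx1 (0.991), Zbtb22 (0.991) and Mex3b (0.99), and within the 7 transgenic libraries alone these fell to 0.194, 0.579 and 0.761, so they rest on the gap to wild type. For the other members the correlations within the 7 transgenic libraries were 0.826 to 0.992.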

How the data were processed

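The authors deposited raw counts of reads, 1 row per gene symbol. Per the labels' protocols, directional libraries were sequenced as single 75-base reads. Per the submitters' processing notes, mm10, STAR 2.3.1z4, featureCounts and DESeq2 were used. Neither the annotation release nor the strand and multi-mapping settings of the counting are named there. All 38720 rows name a gene: 35654 matched GENCODE M21 (GRCm38) by symbol, 1749 by an older symbol and 1317 not at all.

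All 10 libraries entered 1 fit of edgeR 4.0.16's quasi-likelihood test (filterByExpr, TMM, robust spread, 1 coefficient per group). Benjamini-Hochberg adjustment ran over 16340 genes per comparison, with a threshold of 0.05. Standard errors (SE) were derived from each log2 fold change and its F statistic. CPM uses TMM-scaled library sizes, and RPKM divides by the union of annotated exons. For correlations, log2 CPM used a prior count of 2. The tests were checked on simulated counts. Replicates differed by more than sampling noise, so each library counted once. Other software was matplotlib 3.10.9, pandas 2.3.3, numpy 2.4.6 and Python 3.11.15, with limma 3.58.1 and DESeq2 1.42.0 in R 4.3.3.

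The members and lists were chosen with earlier results of these data known. The text names the members, Foxd1, up to 4 genes per list with an adjusted p under 0.05 in any comparison (smallest p first), and for each member the 3 most correlated genes. Alternatives were limma-voom, DESeq2 and its size factors within edgeR, the unfiltered table, and genes with 1 CPM or more in at least 3 libraries. Others were a fit of just the groups compared, a non-robust spread, a sex covariate (from Xist) and a GC offset (lowess span 0.2). Other gene lengths, a replicate block and leaving out each library were also used. Chosen after seeing the data were the 4-library fit without the block, the same alternatives for other named genes and for Mirlet7i (tests not reported), and correlations within the transgenic libraries. Where a member overlaps another gene, reads may be shared: 234 exon bases of Lin28a overlap antisense Gm13061 (0 to 5 counts) and 228 of Zcchc6 overlap Gm49354.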

Additional observations from a re-analysis of the deposited data

How the results depend on the processing

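Every call reported for Lin28a and Khsrp held in each fit run. The number of members past the threshold between induced and no-Cre libraries was 1, and 2 with DESeq2 and with only the 2 groups in the fit, where Dis3l2 was added. The number of all genes called in that comparison was 476, against 926 with DESeq2, 1791 with only the 2 groups, 303 with a sex covariate, and 104 to 304 without 1 library. Signs turned only for differences near 0. For Khsrp between induced and no-Cre libraries they were -0.00 without a filter, -0.02 with a GC offset and -0.01 to 0.03 without 1 library. For Zcchc6 they ran from -0.05 to 0.04 without 1 library between induced and no-Cre libraries. Against wild type, Zcchc6 in induced libraries was at 0.01 with DESeq2, 0.01 without a filter, 0.03 with a GC offset and -0.04 to 0.04 without 1 library, and in no-Cre libraries at -0.01 with the 1 CPM filter and -0.04 to 0.04 without 1 library. Dis3l2 between no-Cre and wild-type libraries was 0.02 with a GC offset. The cause was not tested. The choice of annotated length moved the ratios in all groups alike by construction, and the length of the transgene RNA was not stated. In induced, no-Cre and wild-type libraries Lin28a to Lin28b was 29.7, 0.197 and 0.385 with the longest transcript. With no length correction it was 19.3, 0.128 and 0.25. Zcchc11 to Zcchc6 was 3.18, 3.29 and 2.88 with the longest transcript, and 3.28, 3.39 and 2.97 with no length correction.

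Replicate numbers 2 and 3 are shared by the induced and wild-type groups only. Their deviations from group means had correlations of -0.03 and -0.08, against -0.09 to 0.13 for other pairs. So few pairs cannot show whether the number marks a litter or batch, which the labels do not say. With the replicate block, in 4 libraries, 3 members passed: Lin28a (6.96), Lin28b (0.62) and Khsrp (0.85). Dis3l2 was at -0.34 (adjusted p = 0.112; 0.101 in the same libraries without the block), Zcchc11 at 0.11 and Zcchc6 at -0.01. The block gave 3596 genes called, against 2651 in the same libraries without it and 8050 in all libraries. The hairpin rows hold at most 27 counts in a library, and no test of them is reported.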
